A study of Homo sapiens with 24 samples.

Results

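The response described here is that of ID3-KO U2OS cells to 24 h of mocetinostat, compared with untreated ID3-KO U2OS cells. Members were chosen by sample title: the 3 treated and the 3 untreated libraries whose titles name U2OS and the ID3 knockout, which are 6 of the 24 libraries of the study. U2OS is a human osteosarcoma cell line, labelled here as bone, and every library of both groups carries the ID3 knockout. The treated cells received mocetinostat, an inhibitor of class I histone deacetylases (HDACs), for 24 h. Per the methods some samples were taken at the end of treatment, before recovery, and that these libraries are such samples was inferred from titles that name treatment and no recovery. The library names of these 6 samples also carry the name DivA, while their cell line field gives U2OS. How the knockout line was made, whether it is 1 clone and the dose used for sequencing were not given in the sources used here. The untreated cells are labelled as such, and a supplement of the study names DMSO as the control of this comparison. Biological replicates were stated, 3 for each condition. The libraries of 2 more comparisons, 6 each, served to show where this response differs. Those of untreated WT U2OS cells also served to sort genes by their level. These comparisons were of WT U2OS cells, untreated or treated for 24 h before recovery, and of AID-DIvA cells with the ID3 knockout, a U2OS line with an inducible restriction enzyme, untreated or treated for 24 h and then kept without drug for 24 h. In this last line, the treatment given in the sample characteristics was the reverse of that in title and library name, and titles decided the group.

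Histone deacetylases remove acetyl groups from lysines of histone tails and of other proteins, and the class I enzymes HDAC1, HDAC2 and HDAC3 act inside corepressor complexes such as NuRD, SIN3, CoREST and NCoR. REST, a repressor that keeps neuronal genes silent outside the nervous system, recruits such complexes to a DNA element called RE1. ID3 is one of the ID proteins, which bind E proteins (basic helix-loop-helix transcription factors) and keep them off DNA.

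The cells carried the transcripts of a mesenchymal line. Of 8 bone and mesenchymal markers 7 passed the filter on low counts, and their summed level lay between 4093 and 4267 CPM (counts scaled to library size) in untreated and between 3021 and 3146 CPM in treated libraries, with VIM, which encodes the intermediate filament vimentin, at 745 ± 11.1 and 763 ± 32.1 CPM (SD, n = 3 per group). The type I collagen chain COL1A2 stood at 0.144 ± 0.0580 and 0.293 ± 0.111 CPM, and TWIST1, the member that did not pass, had 1, 0 and 0 counts untreated and 0, 0 and 0 treated. Epithelial markers summed to 332 to 346 CPM untreated and 301 to 342 CPM treated, almost all of it from the keratins KRT8 and KRT18. Blood cell markers summed to 1.97 to 2.22 CPM and then 4.58 to 6.16 CPM, with 2 of the 8 at 0 in all 3 libraries of each group, and endothelial markers to 6.50 to 6.98 CPM and then 13.9 to 14.2 CPM. KDR, an endothelial growth factor receptor, gave most of that last rise, from 0.0805, 0.0872 and 0.0923 to 5.62, 6.12 and 5.31 CPM. The part that other cell types play in the results was not tested.

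Total counts per library ran from 50660775 to 62530744. ID3 (ENSG00000117318.8, chr1:23884409-23886285 of GRCh37/hg19), the targeted gene, was still counted in the knockout: 33.5, 31.2 and 30.3 CPM in untreated and 42.2, 31.6 and 36.5 CPM in treated libraries. These ranges overlapped, although the fitted log2 fold change of 0.22 had an adjusted p of 0.021 (standard error 0.08). A count over the whole gene cannot show whether the transcript still encodes the protein. More genes were detected after treatment: 21136 to 21896 genes had at least 10 counts in treated and 20053 to 20451 in untreated libraries, without overlap.

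Mocetinostat changed the transcriptome of ID3-KO cells broadly, and large increases outnumbered large decreases. Among 21176 genes tested, 3086 were called higher (14.6%) and 1222 lower (5.77%) in treated cells. The rule was an adjusted p below 0.05 (quasi-likelihood test of edgeR, p-values adjusted by Benjamini and Hochberg's method over all genes tested) with a log2 fold change beyond 1. Without a threshold on the fold change, 7590 genes rose (35.8%) and 7204 fell (34%), and the median log2 fold change over all genes tested was 0.00. In what follows a gene rose or fell where its adjusted p was below 0.05, and was called where its log2 fold change also went beyond 1, and all adjusted p-values come from that edgeR test. Of the called genes, 3066 of the 3086 higher and 1204 of the 1222 lower had no overlap between the 3 treated and the 3 untreated libraries, as had 15308 of all genes tested. These are bulk measurements, so more RNA in every cell and more cells with the RNA cannot be told apart.

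**Figure D1:**
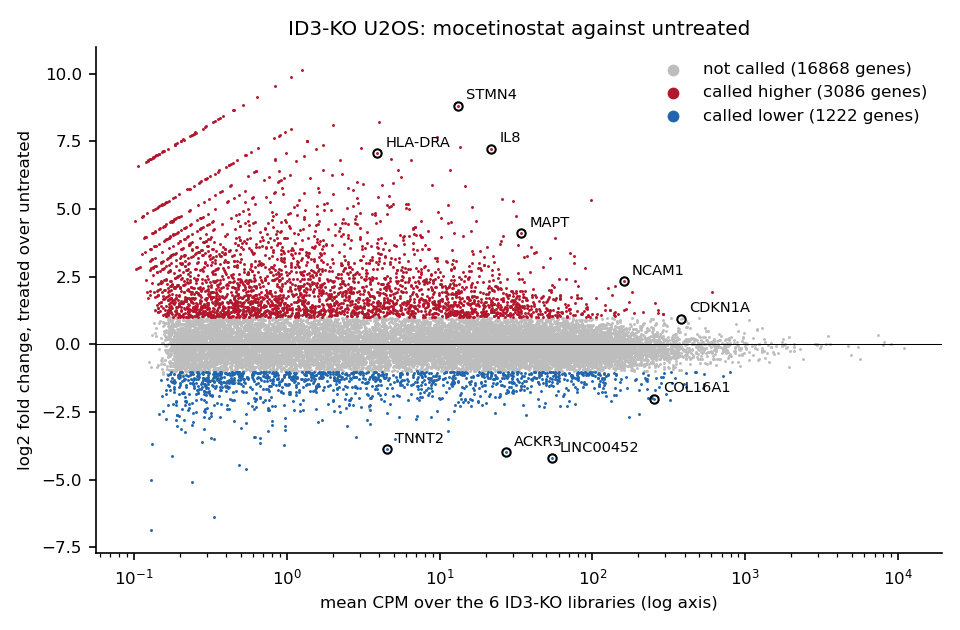
Log2 fold change of each of the 21176 tested genes in ID3-KO U2OS cells (treated over untreated, vertical axis) against its mean CPM over the 6 libraries (horizontal log axis), with 3086 genes called higher in red and 1222 called lower in blue. The diagonal rows of red points at the upper left are genes with hardly a count in untreated cells, whose fitted values depend on the prior count.

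The genes called higher were mostly genes with little RNA beforehand. This was read from untreated WT U2OS cells, whose libraries take no part in the comparison: 59.4% of genes called higher had less than 1 CPM there, against 28.5% of genes called lower and 26.9% of all tested. Of the 1833 genes behind the 59.4%, 569 had less than 0.1 CPM, where many passed the filter only through the treated libraries. Genes that pass in that way can hardly be called lower. Of the 5287 genes with 1 to 10 CPM there, 16.9% were called higher and 7.98% lower in treated ID3-KO cells, whereas of the 2346 genes with at least 100 CPM 0.469% were called higher and 5.41% lower. Between 10 and 100 CPM the shares were close, 4.46% and 4.13% of 7863 genes. At 0.1 to 1 CPM 18.6% of 6813 genes were called higher and 4.93% lower. Replicate 1 of the untreated WT libraries was unlike the others of its group, as given below. Most of the 19516 genes with a count but below 0.1 CPM stayed under the filter in both groups, and 569 of them (2.92%) were called higher. Many such genes could pass the filter only through the treated libraries, so the share is given over all genes with a count and not over those tested. Within the 3086 called higher, 51 had no count in any untreated library and 359 had 1 to 9 counts in all 3 together. For such genes counts are given below and no fold change, except a lower bound where the untreated count was 0.

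**Figure D2:**
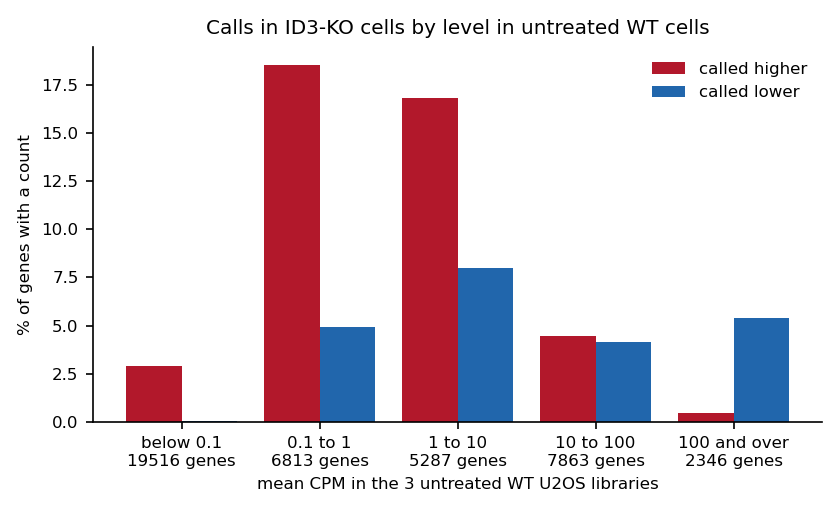
Share of genes called higher (red) and lower (blue) in treated ID3-KO U2OS cells (vertical axis, % of genes with at least 1 count in the 12 U2OS libraries), by the mean CPM of the gene in 3 untreated WT U2OS libraries (horizontal axis). The share called higher is largest from 0.1 to 10 CPM and smallest at 100 CPM and over, where more genes were called lower than higher.

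By kind of gene, 14.9% of 15117 protein-coding genes, 14.1% of 3447 long noncoding RNA genes and 13.6% of 1635 pseudogenes were called higher, shares close to the 14.6% of all genes. Decreases were distributed less evenly: 10.9% of long noncoding RNA genes were called lower, against 4.52% of protein-coding genes. Long noncoding RNAs also stood among the largest falls. LINC00452 (chr13:114586640-114626485) went from 102, 100.2 and 106 CPM in untreated to 4.73, 5.55 and 6.50 CPM in treated libraries, the largest fall among called genes with at least 1 CPM on average and no overlap (log2 fold change -4.19, standard error 0.07, adjusted p = 1.2e-21). The counts take in reads from either strand, so that reads of a gene and of a partner on the opposite strand are not separated here.

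The other large falls took in receptor genes. ACKR3, an atypical chemokine receptor that binds CXCL12, went from 53.9, 48.6 and 49.9 CPM to 3.16, 2.84 and 3.61 CPM, a log2 fold change of -3.97 (standard error 0.08, adjusted p = 2.3e-21). DRD1, the D1 dopamine receptor, fell from 13.4, 12.3 and 12.8 to 1.13, 1.24 and 1.26 CPM. In neither gene did the groups overlap. TNNT2, which encodes cardiac troponin T, fell by 3.86 on the log2 scale from a mean of 8.48 CPM, and SALL4, a zinc finger factor of embryonic stem cells, fell by 2.94 from 6.18 CPM. Also among the 12 genes with the largest falls were ZXDA and MOV10L1, the pseudogene HNRNPA1P33 and the noncoding RP11-279O17.1, RP11-134O21.1 and CTB-78F1.2, with log2 fold changes from -3.44 to -2.80.

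The largest rises began at almost nothing. RP11-805L22.3 and MIR7-3HG, the host transcript of a copy of the microRNA miR-7, had no count in the untreated libraries. The treated libraries held 119, 146 and 173 counts of RP11-805L22.3 and 136, 104 and 127 counts of MIR7-3HG. Against a floor of 3 counts in each untreated library they were at least 45.1-fold and 37.8-fold higher. STMN4, a stathmin of neurons, went from 1, 7 and 1 counts to 1695, 1256 and 1612 counts. POU4F2, a transcription factor of retinal ganglion cells, went from 1, 0 and 1 to 255, 195 and 243 counts, and SCN1A, a neuronal sodium channel, from 0, 3 and 0 to 193, 179 and 223. With 1 to 9 counts before treatment, these changes are shown by the counts alone.

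Some large rises began from more counts, but CYP4F2 and BCAS1, given here, passed the filter only with the treated libraries. Their fold changes rest on few untreated counts. CYP4F2, a fatty acid hydroxylase, had 8, 1 and 6 counts untreated and 1000, 1060 and 1273 treated, that is 0.161, 0.0174 and 0.111 and 17.5, 20.2 and 19.99 CPM, with a log2 fold change of 7.66 (standard error 0.18, adjusted p = 8.4e-20). BCAS1, a gene of myelinating oligodendrocytes that is amplified in some breast cancers, went from 0.161, 0.227 and 0.111 to 27.8, 25.9 and 27.2 CPM (log2 fold change 7.31, standard error 0.13, adjusted p = 6.7e-22). The other 5 of the 12 largest rises were noncoding transcripts named by clone (CTD-2562J17.2, RP1-56J10.8, RP11-206M11.7, RP11-740P5.3 and RP11-59N23.3), each with at most 4 counts over the untreated libraries.

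Neuronal and synaptic genes rose as a group. Of 42 genes listed, 40 were tested and 31 were called higher and 0 lower, against 14.6% and 5.77% of all genes tested. The median log2 fold change of the tested members was 2.45, beside 0.00 over all genes. Because 7 members passed the filter only with the treated libraries, the 33 members that would have passed on untreated libraries alone were counted too, and 24 of them were called higher (median 1.81). Later counts of calls are likewise to be read beside these 14.6% and 5.77%, and counts of genes that rose and fell beside 35.8% and 34%.

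Genes of the neuronal cytoskeleton were among the clearest. STMN2, a stathmin of growing axons, stood at 0.0603, 0.105 and 0.166 CPM in untreated and 12.9, 12.9 and 13.0 CPM in treated libraries, a log2 fold change of 6.83 (standard error 0.16, adjusted p = 8.4e-20). STMN2 passed the filter only with the treated libraries, so its fold change rests on few untreated counts. MAPT, which encodes the microtubule protein tau, went from 3.50, 4.06 and 3.58 to 67.8, 61.2 and 64.6 CPM (log2 fold change 4.12, standard error 0.07, adjusted p = 6.6e-22). MAP2, the microtubule protein of dendrites, went from 4.34, 4.29 and 4.76 to 31.4, 36.6 and 35.3 CPM. In each the lowest treated library stood several times above the highest untreated one. All 3 neurofilament genes rose, NEFL from 116 ± 3.11 to 260.0 ± 11.2 CPM, NEFM from 0.636 ± 0.237 to 4.52 ± 0.365 CPM and NEFH from 0.512 ± 0.0808 to 7.79 ± 0.736 CPM (SD, n = 3 per group). TUBB3, the tubulin isotype used as a marker of neurons, went the other way and fell by 0.41 on the log2 scale, from 12.3 to 9.21 CPM (adjusted p = 1.7e-05).

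Genes of synaptic vesicles and their release rose likewise. SYN1, which encodes the vesicle protein synapsin I, stood at 0.302, 0.262 and 0.332 CPM untreated and 19.5, 16.03 and 17.3 CPM treated, and SYP, for synaptophysin, at 5.65, 5.91 and 6.26 and 77.0, 67.2 and 73.8 CPM, log2 fold changes of 5.88 and 3.61 with standard errors of 0.14 and 0.07 and adjusted p-values of 6.5e-20 and 1.4e-21. The complexins CPLX1 and CPLX2, clamps of vesicle fusion, rose by 3.08 and 4.80, and the granins CHGA, CHGB, SCG2 and SCG3, cargo of dense-core granules, by 4.86, 2.57, 3.76 and 2.42. SNAP25, which encodes a protein of vesicle fusion, rose by 0.79, below the threshold of a call, from 7.79 to 13.5 CPM. The calcium sensor gene SYT4 had 0, 0 and 1 counts in untreated and 88, 91 and 108 in treated libraries.

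Among adhesion molecules, NCAM1, the neural cell adhesion molecule, was the most abundant of those that rose, from 51.4, 53.6 and 53.1 CPM to 265, 265 and 271 CPM (log2 fold change 2.34, standard error 0.04, adjusted p = 1.7e-21). L1CAM went from 51.7, 48.2 and 48.7 to 172, 151 and 164 CPM. Groups did not overlap for either gene. NRXN2, a presynaptic neurexin, rose by 0.26 and the postsynaptic scaffold gene DLG4 fell by 0.32, both by less than the threshold of a call. The 2 members not tested were GRIA2, with 7, 3 and 1 counts untreated and 5, 6 and 9 treated, and INA, with 0, 0 and 1 and 1, 4 and 1.

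**Figure D3:**
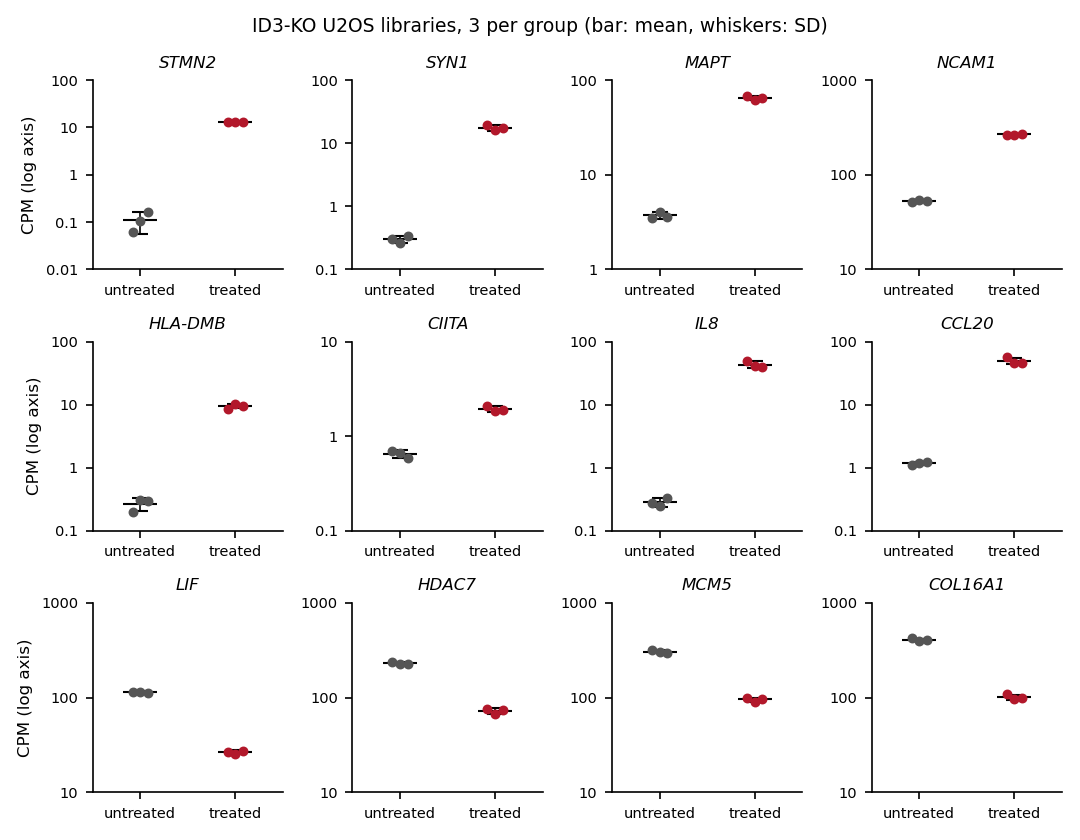
Level of 12 genes in each of the 6 ID3-KO U2OS libraries (vertical log axes, CPM), untreated in grey and treated in red, 3 libraries per group, with the mean as a bar and the SD as whiskers. In none of the 12 genes do treated and untreated libraries overlap, and the top row holds neuronal genes that rose, the bottom row genes that fell.

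All RefSeq promoter windows of GRCh38.p14, not only those of neuronal genes, were searched on both strands for the core of the RE1 element. The core is written here as AGCACC, 2 bases of any kind and GGACAG. The windows run from 250 bases before to 50 after each transcript start. Of 35116 windows 20 held it (0.0570%), and 10 genes with such a window were tested in ID3-KO cells. Of these 10, 8 were called higher and 0 lower, beside 14.6% and 5.77% of all genes tested, but LHX3, HHATL and BSX passed the filter only with the treated libraries. Among the 10, SYN1 alone belonged to the neuronal list above. The sites of the 8 genes are shown because the match and the rise come together in them, each with 3 bases before and 4 after the core, read along the motif, with the letters fixed by the search in capitals.
LHX3 (chr9:136205135-136205155): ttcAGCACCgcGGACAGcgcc
SYN1 (chrX:47620070-47620090): ttcAGCACCgcGGACAGtgcc
HHATL (chr3:42701615-42701635): gtcAGCACCttGGACAGcagc
BSX (chr11:122981959-122981979): ttcAGCACCgcGGACAGctcc
TTC9B (chr19:40218350-40218370): atcAGCACCggGGACAGcgcg
RPH3A (chr12:112791548-112791568): gtcAGCACCacGGACAGcgct
TMEM179 (chr14:104604893-104604913): gtcAGCACCgcGGACAGctcc
SCAMP5 (chr15:74995386-74995406): actAGCACCtcGGACAGctcc

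SYN1 is described above, LHX3 and BSX encode homeobox factors of the pituitary and hypothalamus, RPH3A encodes a vesicle protein that binds RAB3, and SCAMP5 is a membrane protein of synaptic vesicles. SCAMP5 rose from 23.9, 26.0 and 24.3 to 64.5, 57.2 and 61.8 CPM and TMEM179 from 2.66, 2.72 and 3.06 to 11.5, 9.12 and 11.5 CPM, log2 fold changes of 1.31 and 1.93, while LHX3 went from 0, 1 and 0 to 59, 26 and 37 counts. The 2 tested genes with a site and no call were OGDHL, which rose by 0.46, and UCN, with a log2 fold change of 0.05 (adjusted p = 0.7). The windows matched 61.2% of the tested genes by symbol, too few for a share of motifs among called genes, so none is given. A match of letters is a description and not a binding site. REST itself stood at 55.3, 56.6 and 52.6 CPM in untreated and 63.9, 64.3 and 58.8 CPM in treated libraries and rose by 0.18 (adjusted p = 0.002). Of its partners in the list, RCOR2 rose from 3.46 to 14.4 CPM (log2 fold change 2.06), RCOR1 rose by 0.54, and the phosphatase gene CTDSP1 fell by 1.06.

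In the SYN1 promoter the site lies 230 to 217 bases before the transcript start. The 250 bases before the start are shown (chrX:47619858-47620107 of GRCh38.p14, minus strand), 5′ to 3′ along the gene, with the searched core in capitals.
SYN1: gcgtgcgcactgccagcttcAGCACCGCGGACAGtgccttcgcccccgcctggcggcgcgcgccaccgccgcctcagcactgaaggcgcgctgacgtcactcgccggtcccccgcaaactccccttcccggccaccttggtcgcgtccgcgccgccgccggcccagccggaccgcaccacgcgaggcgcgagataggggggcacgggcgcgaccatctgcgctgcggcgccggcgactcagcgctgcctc

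Subunits of potassium, sodium and calcium channels rose in number, with a few falls. Of 133 genes listed 111 were tested, 57 were called higher and 6 lower, beside 14.6% and 5.77% of all genes, with a median log2 fold change of 1.06. The falls, 6 of 111, were near the share of all genes. Of the 97 that passed on untreated libraries alone, 44 were called higher (median 0.63). KCNH4, a voltage-gated potassium channel, went from 0.302, 0.279 and 0.221 to 9.81, 8.41 and 10.8 CPM and KCNH6, of the same family, from 0.201, 0.331 and 0.443 to 7.89, 7.02 and 7.27 CPM. KCNU1 and CACNG3 had no count in untreated libraries and were at least 8.78-fold and 8.36-fold higher. KCNN4, the calcium-activated channel of many non-excitable cells, went from 123, 118 and 118 to 39.4, 35.0 and 39.0 CPM (log2 fold change -1.66, standard error 0.05, adjusted p = 5.5e-18). CACNG6, a calcium channel subunit, had the largest fall, by 2.02, and the neuronal sodium channel gene SCN2A fell by 1.64 while SCN1A, described above, rose.

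MHC class II genes, which present peptides on antigen-presenting cells, rose in this sarcoma line. Of 13 listed genes, with their transactivator CIITA, 12 were tested and 11 were called higher and 0 lower, with a median log2 fold change of 3.01. Of the tested members, 6 passed the filter only with treated libraries, and of the other 6, 5 were called. HLA-DRA, the alpha chain of HLA-DR, went from 1, 2 and 6 counts in untreated to 401, 412 and 537 counts in treated libraries. HLA-DMB and HLA-DMA, which load peptides onto class II molecules, went from 0.201, 0.314 and 0.295 to 8.68, 10.1 and 9.48 CPM and from 0.644, 0.576 and 0.720 to 3.42, 2.79 and 3.67 CPM, log2 fold changes of 5.10 and 2.35 with standard errors of 0.15 and 0.17 and adjusted p-values of 4.1e-18 and 2.0e-11. CIITA, the switch of this family, rose less, from 0.704, 0.663 and 0.591 to 2.08, 1.85 and 1.90 CPM (log2 fold change 1.58, standard error 0.17, adjusted p = 3.5e-08).

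CD74, the invariant chain that escorts class II molecules, was the exception, at 0.644, 0.471 and 0.683 CPM untreated and 0.768, 0.630 and 0.801 CPM treated (log2 fold change 0.30, adjusted p = 0.26, groups overlapping). Of 8 blood cell markers 5 were tested, with 3 called higher and 0 lower and log2 fold changes from -0.96 to 3.96. Of the 4 that passed on untreated libraries alone 2 were called higher. CSF1R, a macrophage receptor, was among the 3 called higher and rose by 2.13. PTPRC, a defining marker of white blood cells, stood at 0.363 CPM untreated and 0.182 CPM treated on average. Class II levels stayed low: HLA-DMB, the highest of the list after treatment in CPM, reached 9.42 CPM, while the class I gene HLA-B stood at 376 CPM. HLA genes resemble each other closely, and counts of HLA-DRB1 and HLA-DRB5, HLA-DQA1 or HLA-DQB1 are uncertain where reads could be split between copies. Class II promoters are known for a Y box, an inverted CCAAT box read as ATTGG along the gene. The 250 bases before the HLA-DMA start are shown for it (chr6:32953098-32953347 of GRCh38.p14, minus strand), with each ATTGG in capitals. CCAAT, on either strand, was in 34.6% of all windows.
HLA-DMA: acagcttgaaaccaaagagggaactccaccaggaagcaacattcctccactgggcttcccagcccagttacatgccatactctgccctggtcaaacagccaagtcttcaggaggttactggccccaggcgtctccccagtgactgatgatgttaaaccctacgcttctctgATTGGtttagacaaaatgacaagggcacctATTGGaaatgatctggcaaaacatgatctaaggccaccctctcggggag

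Genes of class I presentation moved less. Of 14, 3 were called higher, HLA-E, HLA-F and the immunoproteasome gene PSMB9, and 0 lower, with a median of 0.42. PSMB9 went from 7.66, 8.50 and 7.71 to 28.0, 25.2 and 26.4 CPM, while PSMB8, whose product sits in the same particle, fell by 0.56. Of 35 interferon-stimulated genes 31 were tested, and 5 were called higher and 1 lower (median 0.34), near the 14.6% and 5.77% of all genes. Among those that passed on untreated libraries alone, 3 of the 27 were called higher. OASL, a relative of the oligoadenylate synthetases, rose from 0.784, 0.820 and 0.886 to 11.8, 9.94 and 11.04 CPM, and HERC5, the ligase that attaches ISG15, from 0, 1 and 2 to 88, 95 and 125 counts. MX1, a classical marker of the interferon response, was called lower, from 1.55, 1.54 and 1.86 to 0.611, 0.782 and 0.675 CPM (log2 fold change -1.26, standard error 0.19, adjusted p = 2.6e-06), and IFIT2, IFIT3 and IRF9 fell by 0.96, 0.71 and 0.99.

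Chemokines and cytokines rose in number and in some cases from near silence, with exceptions. Of 33 ligands listed 26 were tested, 13 were called higher and 2 lower, beside 14.6% and 5.77% of all genes, with a median of 1.03. Of the 17 that passed on untreated libraries alone, 6 were called higher (median 0.82). IL8, the neutrophil chemokine also named CXCL8, went from 0.282, 0.244 and 0.332 CPM in untreated to 49.4, 40.4 and 39.8 CPM in treated libraries (log2 fold change 7.23, standard error 0.14, adjusted p = 1.7e-20). CCL20, a chemokine that attracts dendritic cells and T helper cells, went from 1.11, 1.204 and 1.24 to 56.6, 46.2 and 46.1 CPM (log2 fold change 5.39, standard error 0.10, adjusted p = 1.7e-20). For either gene every treated library stood far above every untreated one. CSF3, the granulocyte colony-stimulating factor, had 0, 1 and 2 counts untreated and 150, 80 and 169 treated, and CXCL5 had 0, 0 and 0 and 27, 12 and 29, at least 6.88-fold higher against the floor of 3 counts a library.

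LIF, a cytokine of the interleukin-6 family, fell instead, from 115, 116 and 112 to 26.9, 25.2 and 27.5 CPM (log2 fold change -2.11, standard error 0.05, adjusted p = 6.5e-20). CXCL14 was also called lower, from 10.3, 10.8 and 11.7 to 5.34, 5.19 and 5.62 CPM, with a log2 fold change of -1.02 close to the threshold. Interleukin 6 itself, IL6, stood at 0.523, 0.314 and 0.683 and 0.820, 1.03 and 0.754 CPM and rose by 0.78 (adjusted p = 0.011), and IL11 lay at 11.4, 10.7 and 10.9 and 12.9, 11.1 and 10.7 CPM (adjusted p = 0.43). CXCL1, CXCL2, CXCL10, IL1B, IL33, TNFSF10 and TNFSF13B were not tested for want of counts.

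The letters GGAATTTCC, a form of the NF-kappaB site, were in 0.461% of all promoter windows, and TGANTCA, the AP-1 site, in 7.71%, each searched on both strands. The IL8 promoter holds both and is shown for the 250 bases before the start (chr4:73740319-73740568 of GRCh38.p14, plus strand), with TGANTCA and then GGAATTTCC in capitals. Windows were matched for 23 of the 33 cytokine genes, and those of CXCL1, CXCL2, CXCL3, CXCL5, CXCL10 and CXCL11 also held GGAATTTCC. Of these 6 the 3 that were tested, CXCL3, CXCL5 and CXCL11, were called higher, and the other 3 were among the untested. Of the 26 tested cytokine genes 9 passed the filter only with the treated libraries, among them CXCL5, which had no count in untreated ones. Such genes were tested because of their treated counts, so the 3 calls are given as a description. CCL20, IL1A, TNF, CCL28, IL16 and CXCL12 had windows without GGAATTTCC and were also called higher. Of the other tested genes with such windows, CXCL14 was called lower, and CCL26, IL6, IL11, IL32 and CSF2 were not called.
IL8: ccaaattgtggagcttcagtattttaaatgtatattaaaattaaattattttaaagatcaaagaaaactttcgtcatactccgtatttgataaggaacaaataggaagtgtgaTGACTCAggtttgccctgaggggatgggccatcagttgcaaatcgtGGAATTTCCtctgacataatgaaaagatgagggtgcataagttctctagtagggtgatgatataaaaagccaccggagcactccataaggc

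The calls among NF-kappaB genes were in inhibitors and survival genes, not in the subunits. Of 13 genes 3 were called higher and 0 lower: BIRC3, an inhibitor of apoptosis, from 3.399, 3.05 and 2.97 to 41.1, 37.4 and 35.0 CPM, TNFAIP3, which encodes the inhibitor A20, from 5.13, 5.67 and 5.87 to 24.9, 22.0 and 22.7 CPM, and NFKBIE by 1.28 on the log2 scale. RELA, the main activating subunit, stood at 122 ± 1.81 and 118 ± 8.16 CPM (adjusted p = 0.39), NFKB1 fell by 0.36 and NFKB2 rose by 0.71. Of 16 AP-1 and immediate early genes 6 were called higher and 1 lower (median 0.75). NR4A3, an orphan nuclear receptor, rose most, from 0.322, 0.646 and 0.388 to 6.11, 5.27 and 5.87 CPM, ATF3 rose from 34.2, 37.1 and 42.8 to 130.5, 119 and 121 CPM and FOS from 21.9, 16.3 and 17.5 to 53.6, 42.1 and 48.1 CPM. FOSL2, a FOS relative, fell from 504, 471 and 483 to 207, 200.1 and 205 CPM (log2 fold change -1.25, standard error 0.04, adjusted p = 4.3e-17), and FOSL1 fell by 0.76.

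**Figure D4:**
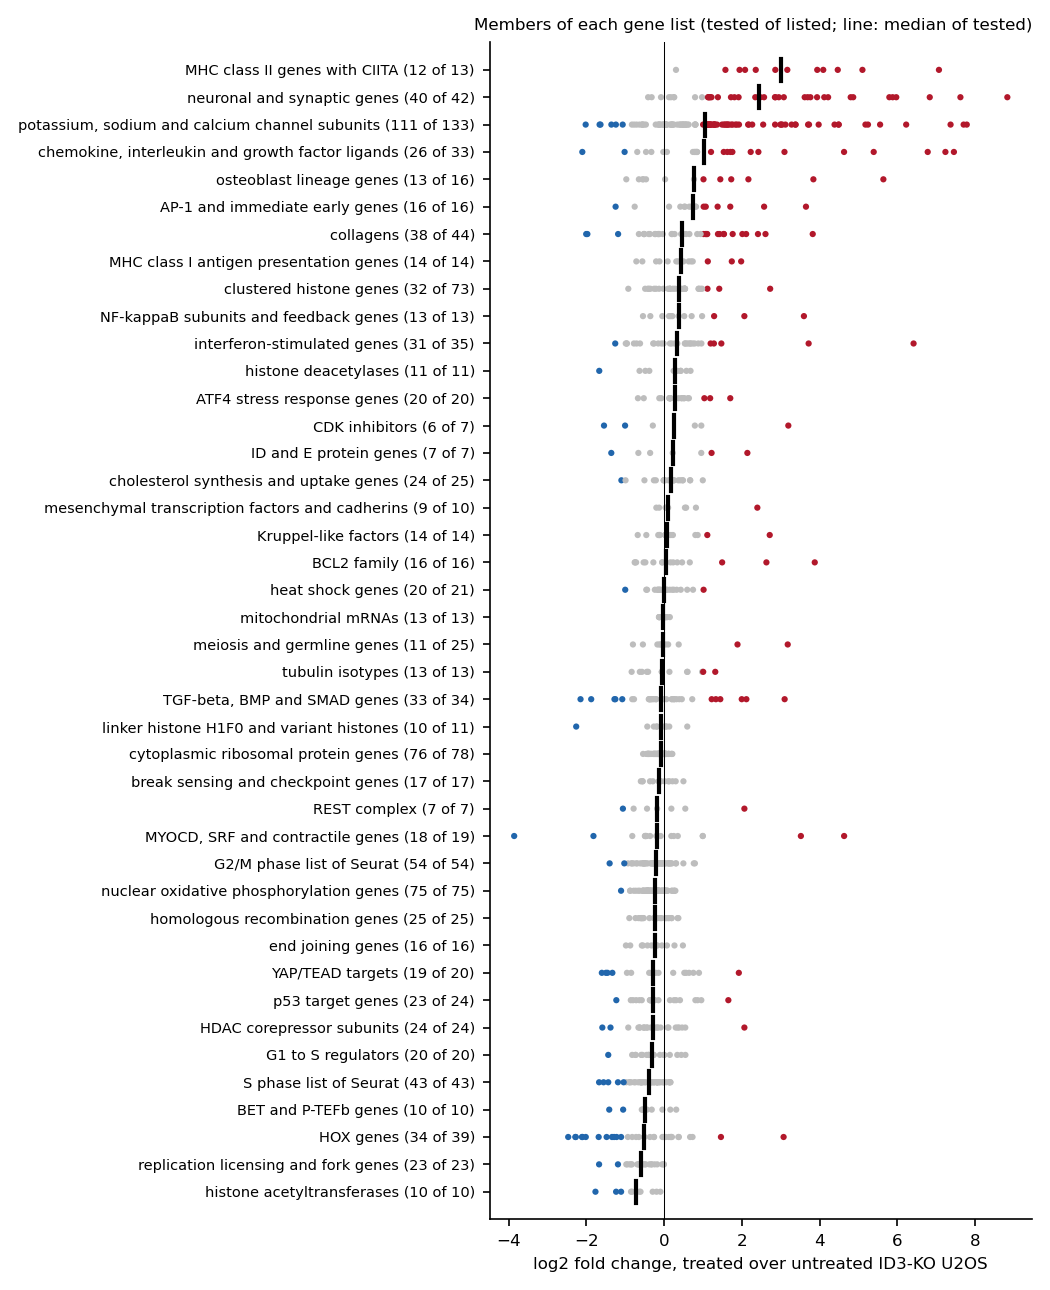
Log2 fold change of each tested member of the gene lists in ID3-KO U2OS cells (horizontal axis), 1 row per list with the number tested of the number listed, ordered by the median of the tested members (black line). Red points were called higher, blue points lower and grey points neither: the MHC class II, neuronal, channel and cytokine lists lie at the top, the histone acetyltransferase and replication lists at the bottom.

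The genes of the drug's targets and of the opposing enzymes moved in different directions. All 11 HDAC genes were tested, 7 rose and 4 fell at the adjusted p, and 1 was called. Of the class I enzymes, HDAC3 rose from 61.3, 64.2 and 62.2 to 99.0, 99.8 and 101 CPM (log2 fold change 0.68, standard error 0.04, adjusted p = 3.4e-12), HDAC2 rose by 0.42 and HDAC1 by 0.29, while HDAC8 fell by 0.38. The called gene was HDAC7, a class IIa enzyme, which fell from 238, 227 and 229 to 76.2, 66.8 and 74.7 CPM (log2 fold change -1.67, standard error 0.05, adjusted p = 4.3e-18). Per kilobase of exon, the mean level of HDAC7 was 23.3 CPM untreated, above the 9.83 CPM of HDAC2, and 7.30 CPM treated, below the 13.2 CPM of HDAC2. HDAC6, the tubulin deacetylase, and HDAC10 fell by 0.48 and 0.63.

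Genes of histone acetyltransferases fell together: of 10, 9 fell and 0 rose, and 3 were called, with a median of -0.73. KAT6B went from 59.4, 61.3 and 60.6 to 17.12, 17.3 and 18.8 CPM, KAT5, which encodes TIP60, from 37.2, 35.2 and 36.2 to 16.6, 15.0 and 14.5 CPM, and CREBBP from 199, 193 and 195 to 87.9, 91.2 and 92.8 CPM (log2 fold changes -1.77, -1.24 and -1.11). EP300, the relative of CREBBP, fell by 0.64, and KAT6A, the relative of KAT6B, had a log2 fold change of -0.10 with an adjusted p of 0.0505. At the adjusted p 34% of all genes fell. Of 24 corepressor subunits, 15 fell and 7 rose. The NuRD helicase gene CHD3 fell from 407, 404 and 416 to 135, 133 and 139 CPM and ZMYND8 fell by 1.38, and RCOR2 was the only one called higher.

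Of 10 BET and P-TEFb genes, which serve the release of paused RNA polymerase, 7 fell and 2 rose. MEPCE, a capping enzyme of the inhibitory 7SK particle, fell from 84.5, 86.1 and 85.8 to 33.0, 29.9 and 33.1 CPM, while HEXIM1, the inhibitor in that particle, rose by 0.31. Among variant histones H1F0, the linker histone of resting cells, rose from 1029, 1026 and 1043 to 1589, 1510.3 and 1571 CPM (log2 fold change 0.59, standard error 0.04, adjusted p = 2.2e-11), and H2AFY2, for macroH2A2, fell from 72.2, 77.1 and 74.2 to 16.9, 13.5 and 15.98 CPM. Clustered histone genes were read from few counts, and 32 of 73 were tested. Of these 16 rose and 1 fell, and 3 were called higher, HIST1H1E with the largest change, from 0.704, 0.419 and 0.369 to 3.70, 2.96 and 3.11 CPM.

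Among the ID genes and their E protein partners, changes were of opposite sign. ID4 rose from 2.80, 2.48 and 2.66 to 13.4, 10.7 and 10.7 CPM and ID2 from 5.01, 4.68 and 4.84 to 12.6, 10.1 and 11.1 CPM (log2 fold changes 2.14 and 1.22 with standard errors of 0.10 and 0.09 and adjusted p-values of 2.1e-14 and 3.0e-11). ID1, the most abundant of the family in these cells in CPM, rose from 177, 164 and 168 to 381, 289 and 315 CPM, by 0.95. All 3 E protein genes fell: TCF4 from 51.5, 50.8 and 51.5 to 19.4, 20.9 and 19.5 CPM, the largest of them (log2 fold change -1.36, standard error 0.05, adjusted p = 2.1e-16), TCF12 by 0.66 and TCF3 by 0.36. ID3, the targeted gene, is given above.

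CDK inhibitor genes did not move as one. CDKN1A, which encodes p21, rose from 267, 257 and 254 to 534, 465 and 506 CPM (log2 fold change 0.95, standard error 0.05, adjusted p = 5.4e-14), just short of a call, while CDKN1B, for p27, fell from 75.6, 75.1 and 71.2 to 35.2, 36.96 and 38.1 CPM and CDKN2C, for p18, from 57.9, 59.1 and 59.6 to 21.1, 19.6 and 19.7 CPM. CDKN2A was read from 0, 5 and 2 counts untreated and 22, 19 and 31 treated. Replication genes shifted down: of 23 licensing and fork genes 20 fell and 0 rose, beside 34% and 35.8% of all genes, 2 were called, and the median was -0.58. MCM5, a subunit of the replicative helicase, fell from 316, 306 and 297 to 98.9, 90.5 and 98.1 CPM (log2 fold change -1.67, standard error 0.05, adjusted p = 1.3e-18), more than MCM2, MCM3, MCM4, MCM6 and MCM7, which fell by 0.50 to 0.97. TYMS, for thymidylate synthase, fell from 377, 388 and 397 to 169, 177 and 163 CPM. The licensing factor gene CDC6, at 165 ± 1.44 and 164 ± 5.47 CPM (SD, n = 3 per group), and GMNN, at 42.8 ± 1.498 and 42.6 ± 2.03 CPM, did not pass (adjusted p = 0.83 and 0.91).

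In the cell cycle lists of Seurat, 34 of 43 S phase genes fell and 3 rose (median -0.38), and 35 of 54 G2/M phase genes fell and 10 rose (median -0.22), beside 34% and 35.8% of all genes. Calls were few, 5 and 2 lower and 0 higher. In the S phase list UNG, a uracil glycosylase, fell from 112, 116 and 116 to 38.3, 38.7 and 39.6 CPM. In the G2/M list the heterochromatin protein gene CBX5 fell most, from 219, 221 and 219 to 78.1, 86.9 and 83.8 CPM, while the kinetochore motor gene CENPE rose from 83.9, 87.1 and 84.3 to 115, 129 and 115 CPM and GAS2L3 rose by 0.79. Of 20 G1 to S regulators 14 fell and 4 rose, E2F8 the only one called (log2 fold change -1.44). CCND1 and CCND3, for D-type cyclins, rose by 0.34 and 0.55.

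Repair genes shifted by little, in the direction of decrease. Of 25 homologous recombination genes 15 fell and 4 rose, of 16 end joining genes 12 and 2, and of 17 break sensing and checkpoint genes 9 and 4, beside 34% falling and 35.8% rising among all genes, and their log2 fold changes lay between -0.98 and 0.50, short of a call. The medians were -0.23, -0.24 and -0.12. LIG3, a DNA ligase, fell from 58.9, 59.2 and 59.9 to 33.2, 31.8 and 32.1 CPM. RAD50 rose by 0.37, LIG4 by 0.48 and CHEK2 by 0.50.

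Of 24 p53 target genes, 23 were tested, 15 fell and 8 rose. TP53I3 fell from 73.9, 74.7 and 74.2 to 32.2, 30.0 and 32.5 CPM and GDF15 rose from 1.37, 1.03 and 1.26 to 3.96, 3.47 and 3.96 CPM, the only call in each direction. BCL2 family genes were split, with 8 of 16 rising and 6 falling. PMAIP1, for the apoptosis sensitizer NOXA, rose from 33.9, 35.9 and 34.8 to 99.9, 99.1 and 94.7 CPM (log2 fold change 1.49, standard error 0.05, adjusted p = 1.0e-17) and BIK, of the same class, from 0.382, 0.331 and 0.572 to 2.97, 2.75 and 2.28 CPM. BAX, an effector of apoptosis, fell from 197, 191 and 181 to 117, 107 and 121 CPM, and BCL2A1, a survival gene, rose from 0.221, 0.0174 and 0.0369 to 1.31, 1.55 and 1.08 CPM. BCL2A1 passed the filter only with the treated libraries.

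Genes that mark position and lineage also changed. Of 39 HOX genes, 34 were tested, 12 were called lower and 2 higher, beside 5.77% and 14.6% of all genes, with a median of -0.51. The falls lay in the A, B, C and D clusters: HOXD10 went from 15.9, 16.3 and 16.8 to 2.60, 3.15 and 3.09 CPM, HOXC6 from 23.1, 21.6 and 22.5 to 4.38, 4.39 and 4.96 CPM and HOXB2 from 23.4, 22.6 and 24.3 to 5.88, 5.53 and 5.92 CPM (log2 fold changes -2.47, -2.28 and -2.02). Of the 2 called higher, HOXD1, the first gene of the D cluster, went from 0.141, 0.227 and 0.221 to 1.83, 1.49 and 1.71 CPM. HOXD1 passed the filter only with the treated libraries, and 1 of the 33 members that passed on untreated libraries alone was called higher. HOXC13, the last gene of the C cluster, lay at 22.5 ± 0.968 and 23.1 ± 0.104 CPM (SD, n = 3 per group, adjusted p = 0.53).

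Among bone genes, RUNX2, the master factor of osteoblasts, fell from 25.7, 24.6 and 26.5 to 12.2, 13.2 and 13.6 CPM (log2 fold change -0.97), and COL1A1 and SPARC, matrix genes of bone, fell by 0.65 and 0.56. Other genes of the lineage went the other way. SPP1, for osteopontin, rose from 15.5, 18.3 and 17.3 to 52.7, 58.8 and 57.4 CPM, MSX2 from 3.82, 3.75 and 3.84 to 18.4, 16.1 and 16.7 CPM and BMP2 from 7.24, 7.82 and 7.95 to 23.6, 19.8 and 19.2 CPM, and DMP1, an osteocyte gene, had 2, 0 and 0 counts untreated and 48, 24 and 55 treated. In all, 6 of 16 listed osteoblast lineage genes were called higher and 0 lower, with 13 tested (median 0.77), beside 14.6% and 5.77% of all genes. Without those that passed only with treated libraries, 3 of the 10 were called higher and the median was -0.22.

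Collagens changed in both directions. Of 44 genes, 38 were tested, 14 were called higher and 3 lower (median 0.46), beside 14.6% and 5.77% of all genes. Among members that passed on untreated libraries alone, 10 of the 33 were called higher (median 0.21). The called falls were in chains at 100 CPM or more in untreated cells: COL16A1 from 422, 394 and 406 to 109, 96.3 and 99.0 CPM, COL3A1 from 374, 364 and 360.5 to 91.4, 91.9 and 95.4 CPM and COL5A2 from 170.0 ± 4.44 to 74.7 ± 0.547 CPM. Of those called higher, COL13A1 stood highest after treatment in CPM, from 21.1, 21.2 and 21.2 to 85.6, 64.0 and 65.6 CPM, followed by COL5A3, from 3.24, 3.30 and 3.53 to 51.7, 43.2 and 47.1 CPM (log2 fold change 3.82, standard error 0.08, adjusted p = 1.1e-20). COL4A4, a chain of specialised basement membranes, rose by 2.01, and COL4A1 and COL4A2, of the common basement membrane, fell by 0.40 and 0.52.

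Of 19 contractile genes, 18 were tested, 2 called higher and 2 lower, TNNT2 among the latter. TPM1, a tropomyosin, fell from 442, 489 and 487 to 129, 138 and 134 CPM, and DES, for the muscle filament desmin, rose from 0.221, 0.192 and 0.129 to 5.18, 4.01 and 4.29 CPM. DES passed the filter only with the treated libraries, and 1 of the 17 members that passed on untreated libraries alone was called higher. YAP/TEAD targets gave 1 call up and 4 down among 19 tested of 20: ANKRD1 rose from 235, 256 and 265 to 992, 955 and 910.2 CPM, while the receptor kinase gene AXL fell from 605, 572 and 574 to 224, 199.9 and 214 CPM and ARHGEF17, an exchange factor for small GTPases, fell by 1.60. In the TGF-beta and BMP pathway 6 of 33 tested genes were called higher and 5 lower, beside 14.6% and 5.77% of all genes. Without members that passed only with treated libraries 4 of the 31 were called higher, near the share of all genes. NOG, for the BMP antagonist noggin, fell from 76.2, 78.4 and 86.1 to 21.2, 15.7 and 17.2 CPM, TGFB3 from 21.8, 21.04 and 21.3 to 5.603, 5.76 and 6.04 CPM and TGFB2 from 163 ± 4.58 to 77.0 ± 8.42 CPM, while BMP6 rose from 3.42, 1.94 and 2.69 to 22.9, 22.2 and 23.0 CPM. Among factors of mesenchymal transition SNAI1 rose from 7.42, 7.10 and 6.81 to 41.4, 31.9 and 38.7 CPM, the only call in 9 tested genes.

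Housekeeping groups changed little per gene. Of 76 tested ribosomal protein genes 37 fell and 3 rose (median -0.09), and of 75 nuclear oxidative phosphorylation genes 55 fell and 5 rose (median -0.23), with NDUFS3, a complex I subunit, the only call (86.6, 93.1 and 90.7 to 40.9, 42.0 and 42.3 CPM). The 13 mitochondrial mRNAs gave 1 rise and 1 fall. Cholesterol genes rose in 14 of 24 cases and fell in 5, with HMGCS1 rising most, from 328, 343 and 334 to 654, 680.2 and 665 CPM, and ACAT2 falling by 1.10, the only call. ATF4 stress genes rose in 15 of 20 and fell in 3, with CHAC1 and ASNS called higher besides ATF3. Heat shock genes rose in 8 and fell in 7 of 20, HSPB1 falling from 1065, 1018 and 1072 to 563, 465 and 545 CPM. The 3 metallothionein genes tested all rose, MT1X from 3.08, 3.68 and 3.91 to 16.3, 14.5 and 15.2 CPM. Calls up numbered 2 of 13 tubulin, 2 of 14 Kruppel-like and 2 of 11 germline genes, with 0 down, near the 14.6% of all genes, and 1 of the 10 germline genes that passed on untreated libraries alone. They were led by TUBB4A (log2 fold change 1.31), KLF15 (2.71) and PIWIL1 (3.18).

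The same treatment of WT U2OS cells was used to ask where the response of ID3-KO cells differs, by the genotype by treatment interaction over 12 libraries. Among 22647 genes, 249 had a higher (1.1%) and 239 a lower (1.06%) response in ID3-KO cells at an adjusted p below 0.05. The number rested on 1 library of untreated WT cells, replicate 1, which was unlike the others of its group (chi-square per gene 103 and 91.1 against replicates 2 and 3, which gave 4.32 between them, where counting error alone gives about 1). Without it 1034 genes were higher (4.46%) and 1057 lower (4.56%) of 23164. Without any 1 of the 6 ID3-KO or 3 treated WT libraries, 134 to 159 genes were higher and 123 to 158 lower. CXCL14 and VWA5B2 were among the 5 genes with the lowest adjusted p and a higher response. CXCL14 fell by 1.02 in ID3-KO cells and had a log2 fold change of -3.44 in WT cells, a difference of 2.42 (standard error 0.14, adjusted p = 9.8e-07). VWA5B2 rose by 2.69 in ID3-KO and 1.12 in WT cells (difference 1.57, standard error 0.11). MFSD2A, a lipid transporter, rose by 1.03 in ID3-KO cells and had a value of -0.78 in WT cells (difference 1.81). LMCD1, a cofactor with LIM domains, rose by 1.51 in ID3-KO and fell by 0.44 in WT cells (difference 1.94), and OASL rose by 3.71 and 1.35 (difference 2.36). All 5 stood lower in untreated ID3-KO than in untreated WT cells. Mean CXCL14 went from 10.9 to 5.38 CPM in ID3-KO and from 59.1 to 5.43 CPM in WT cells. MFSD2A went from 4.48 to 9.15 and 16.7 to 9.70 CPM, and OASL from 0.830 to 10.9 and 5.47 to 13.9 CPM. LMCD1 went from 16.5 to 46.7 and 91.9 to 67.7 CPM, and VWA5B2 from 10.5 to 67.7 and 41.2 to 89.2 CPM. The part of untreated levels in these differences was not tested.

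On the lower side, ADRA1B, an adrenergic receptor, went from 57.3, 56.4 and 55.6 to 24.1, 21.3 and 23.9 CPM in ID3-KO cells, a log2 fold change of -1.29 against 0.24 in WT cells (difference -1.52, standard error 0.09, adjusted p = 9.8e-07). CYP24A1, which breaks down vitamin D, fell by 0.86 in ID3-KO cells and had a value of 0.29 in WT cells (difference -1.15). CTNND2 and SH2D3C rose in both, by 0.61 and 1.76 in ID3-KO and by 2.03 and 3.22 in WT cells (differences -1.41 and -1.46). UNC13D, which serves granule release, fell from 96.8, 88.9 and 86.4 to 30.3, 26.3 and 26.8 CPM, with a WT value of -0.02 (difference -1.67). Each of these genes stood higher in untreated ID3-KO than in untreated WT cells. The means were 56.5 and 26.4 CPM for ADRA1B, 25.7 and 14.5 for CYP24A1, and 26.0 and 3.7 for CTNND2. They were 6.94 and 2.57 CPM for SH2D3C, and 90.7 and 11.7 for UNC13D. Among the lists, cytokines held 4 of 26 genes with a higher response, CXCL14, CCL2, CX3CL1 and IL8. IL8 rose by 7.23 in ID3-KO and by 4.33 in WT cells (difference 2.91, adjusted p = 1.2e-05), and CX3CL1 rose by 1.62 in ID3-KO cells beside a WT value of 0.16 (difference 1.46, adjusted p = 6.6e-05). The neuronal list held 4 of 40 with a higher response, L1CAM, SYP, SYN1 and GAP43, and the TGF-beta list 5 of 33 and the YAP list 4 of 19 with a lower one. TGFB2 fell by 1.08 in ID3-KO cells beside a WT value of -0.30 (difference -0.77, adjusted p = 0.0018), and HOXB2 by 2.02 beside -0.48 (difference -1.52, adjusted p = 0.0017).

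Without replicate 1 of the untreated WT cells, when 4.46% of all genes had a higher and 4.56% a lower response in ID3-KO cells, 8 of 43 S phase, 3 of 23 replication, 3 of 25 recombination and 4 of 54 G2/M genes had a higher one, the last near the share of all genes. ATF4 stress genes were higher in 7 of 20 cases and lower in 0. A lower response was found for 8 of 13 tubulin, 10 of 19 YAP and 11 of 33 TGF-beta genes, beside 1, 1 and 3 with a higher one. In the neuronal list 11 of 40 responses were then higher and 4 lower.

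The response before recovery was compared with that of ID3-KO AID-DIvA cells after 24 h without drug, each against its own untreated libraries. Among 21947 genes, 2574 had a higher (11.7%) and 1274 a lower (5.8%) response before recovery, where the adjusted p had to be below 0.05 and the log2 difference beyond 1. Stage and cell line label coincide in these libraries and cannot be told apart, and the direction of the response after recovery rests on titles that the sample characteristics contradict. The neuronal rise was larger at the earlier stage: 20 of 40 neuronal genes had a higher response before recovery and 0 a lower one, and the list's median was 0.73 after recovery. MAP2, which rose by 2.95 before recovery, had a value of 0.50 after it (difference 2.45, standard error 0.12, adjusted p = 2.2e-11), and NCAM1 had 0.46 after a rise of 2.34 (difference 1.89). STMN2 and SYP had values of 5.13 and 2.83 after recovery. Channel genes had a higher response before recovery in 37 of 113 cases and a lower one in 7.

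In the MHC class II list 2 of 12 genes had a higher response before recovery, HLA-DMB and CIITA, near the 11.7% of all genes. The other counts of this paragraph are to be read beside that 11.7% and the 5.8% of all genes with a lower response. HLA-DRB1 had log2 fold changes of 4.09 before and 4.09 after recovery, whereas CIITA had 1.58 and -0.15 (difference 1.73, adjusted p = 3.1e-05). With counts of the reverse strand alone the difference for CIITA was 2.54 with an adjusted p of 0.2. Histone genes had a higher response before recovery in 17 of 34 cases, and G2/M genes in 11 of 54, and the G2/M list had a median of -0.92 after recovery beside -0.22 before. Replication genes went the opposite way, with 6 of 23 lower before recovery. MCM5 fell by 1.67 before recovery and had a value of 0.30 after it (difference -1.97, adjusted p = 5.4e-12). LIF fell by 2.11 before and had a value of 0.27 after recovery (difference -2.37, adjusted p = 6.5e-12), and CSF2, the granulocyte-macrophage factor, had -0.69 before (adjusted p = 0.18) and 4.81 after (difference -5.50). HOX genes were lower before recovery in 8 of 35 cases and higher in 3, the latter near the share of all genes.

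The 5 genes with the smallest adjusted p and a higher response before recovery were VAT1L, KCNA1, RIMKLA, STC1 and CAMKV. KCNA1, a potassium channel of axons, went from 7.06, 7.10 and 6.88 to 69.9, 68.7 and 65.2 CPM before recovery, and its log2 fold change was 3.28 then and -0.09 after recovery. CAMKV, a kinase-like protein of synapses, went from 1.55, 1.87 and 1.59 to 32.0, 29.1 and 29.7 CPM and RIMKLA, which makes N-acetylaspartylglutamate in neurons, from 2.94, 2.97 and 3.17 to 49.6, 47.4 and 49.2 CPM. On the lower side stood AMIGO2, an adhesion protein, from 354, 341 and 343 to 55.3, 62.2 and 59.0 CPM, NNMT, which methylates nicotinamide, from 294, 302 and 299 to 44.1, 46.7 and 48.1 CPM, LINC00452, ANO2 and C15orf52. After recovery AMIGO2 and NNMT had log2 fold changes of 0.84 and 0.10.

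**Figure D5:**
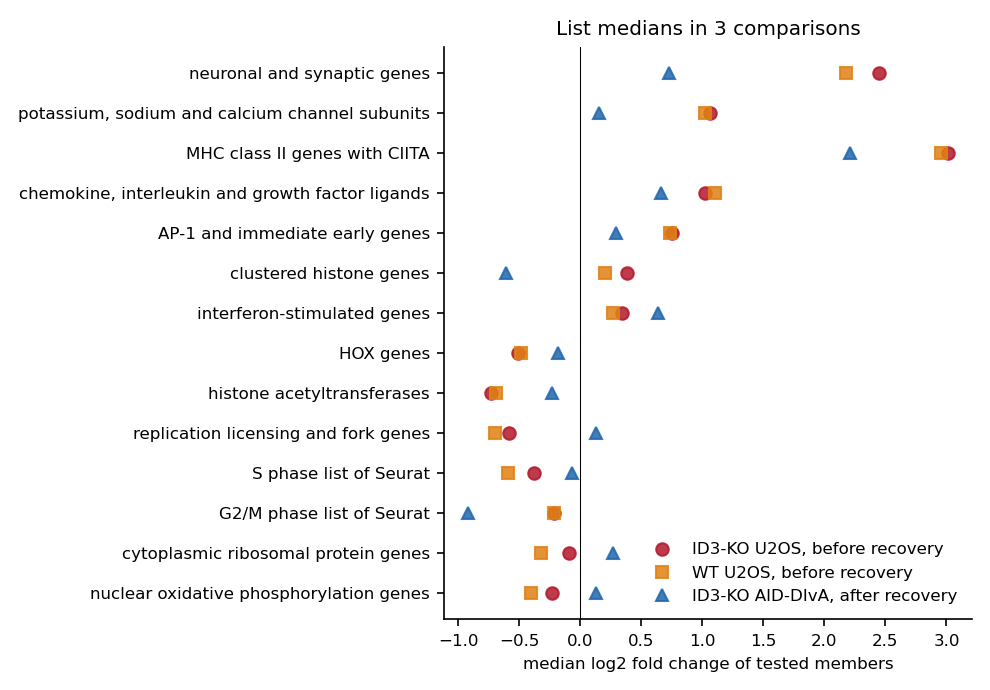
Median log2 fold change of the tested members of 14 gene lists (horizontal axis), treated over untreated, in ID3-KO U2OS cells before recovery (red circles), WT U2OS cells before recovery (orange squares) and ID3-KO AID-DIvA cells after recovery (blue triangles). The red and orange marks lie close in most rows, and the blue triangle stands farthest from the red circle in the neuronal, channel, MHC class II, histone, replication and G2/M rows.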

How the data were processed

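RNA-seq libraries (stranded total RNA, paired-end) of 24 samples were sequenced, and per the labels reads were aligned to hg19 with STAR and assigned to genes with featureCounts. The authors deposited raw counts per gene, from either strand, which were used here, and from the reverse strand, which were an alternative, and also normalized columns that were not used. Members and gene lists were chosen with earlier results of these data known. Samples were grouped by title. Some genes that the naming rule covers are not reported here.

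Counts were tested in R 4.3.3 with edgeR 4.0.16 (limma 3.58.1): TMM factors, filterByExpr (about 0.178 CPM in at least 3 libraries), robust quasi-likelihood fits and Benjamini-Hochberg adjustment over all genes tested. The 6 ID3-KO U2OS libraries were fitted alone for the treatment, and 12 libraries for each difference between responses. CPM used TMM-scaled totals. A standard error is the log2 fold change divided by the root of F. Total counts per library were 37878751 to 76906266 over the study. The steps were tested on simulated data. Named genes were the 12 largest rises and 12 largest falls among called genes with at least 1 CPM on average and no overlap, ID3, list members with a defining role or the largest change, and, for each difference and direction, the 5 genes of lowest adjusted p with at least 1 CPM on average. In addition, OGDHL, UCN, SCAMP5, TMEM179 and the other genes with an RE1 match were named for that match. Cell cycle lists came from Seurat 5.3.0. Promoter windows came from RefSeq (GRCh38.p14), and kinds of gene from GENCODE v44lift37, which matched 97.0% of tested genes. Alternatives were DESeq2 1.42.0, other scaling, other filters, glmTreat, all U2OS libraries in 1 fit, the reverse strand, a replicate block and leaving out each library.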

Additional observations from a re-analysis of the deposited data

Results flagged for a closer look

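Responses that differed between genotypes in the interaction test numbered 249 higher and 239 lower in ID3-KO than in WT cells. The differences in log2 fold change, ID3-KO minus WT, of the genes named in the text were 2.42 for CXCL14, 2.91 for IL8, 1.46 for CX3CL1, 1.94 for LMCD1, 1.81 for MFSD2A, 2.36 for OASL and 1.57 for VWA5B2. On the lower side they were -1.52 for ADRA1B, -1.52 for HOXB2, -0.77 for TGFB2, -1.67 for UNC13D, -1.41 for CTNND2, -1.46 for SH2D3C and -1.15 for CYP24A1. The fitted log2 fold changes of LMCD1, MFSD2A, ADRA1B and CYP24A1 had opposite signs in the 2 genotypes. In untreated ID3-KO cells CXCL14, LMCD1, MFSD2A, OASL and VWA5B2 stood lower than in untreated WT cells. ADRA1B, UNC13D, CTNND2, SH2D3C and CYP24A1 stood higher there.

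Responses before and after recovery differed for 2574 genes that were higher and 1274 that were lower before recovery. Before minus after, the log2 difference was 1.73 for CIITA, 2.45 for MAP2, 1.89 for NCAM1, 2.86 for VAT1L, 3.37 for KCNA1, 3.78 for RIMKLA, 2.79 for STC1 and 3.85 for CAMKV. It was -5.50 for CSF2, -2.37 for LIF, -1.97 for MCM5, -3.98 for LINC00452, -3.39 for AMIGO2, -2.78 for NNMT, -2.37 for ANO2 and -2.21 for C15orf52. Stage and cell line label cannot be told apart in these differences.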

How the results depend on the processing

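The 6 libraries gave 1981 genes called higher where every library had to hold 10 counts, a filter that removes genes silent before treatment, against 3086. Without a fold threshold the counts were 7590 and 7204. Calls higher made up 71.6% of all calls, and 69.2% to 77.0% over the settings, and scaling by total counts shifted the median of all genes by 0.083, so that the log2 values of CDC6, GMNN and RELA became 0.072, 0.076 and 0.034. With 10 counts in every library those of CDC6 and GMNN were 0.019 and 0.023, and that of VIM on the reverse strand was -0.018, none past the threshold in any setting. Leaving out 1 library gave 3173 to 3376 and 1273 to 1359 calls, 7262 to 7664 and 6817 to 7193 at the adjusted p alone, and log2 values of -0.028 to 0.014 for CDC6, -0.043 to 0.014 for GMNN, -0.018 to 0.13 for IL11, -0.087 to 0.010 for RELA and -0.028 to 0.12 for UCN. CDKN1B, COL1A2, CTDSP1, CXCL14, HSPB1, MFSD2A and TGFB2, all near the fold threshold, lost their calls under some settings, COL1A2 (log2 1.01, and 0.69 to 1.35 without 1 library) also with DESeq2, without a filter and with glmTreat.

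Genotype differences numbered 418 and 426 with DESeq2 and 434 higher without a filter. Leaving out 1 of the 12 libraries gave 134 to 1034 higher and 123 to 1057 lower, the highest when replicate 1 of untreated WT was left out, and differences between stages 2421 to 2625 and 1237 to 1366. The CIITA stage difference lost its call on the reverse strand. Of the list counts recomputed, 1310 of 1410 lay within 1.5 times the first value.

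Replicate numbers gave no clear pairing of the samples: same-numbered treated and untreated libraries had correlations of 0.0070, 0.027 and 0.026 between their deviations. Differently numbered libraries had -0.034 to 0.0080. Correlations this low cannot exclude a pairing. With the replicate number as a block 3084 genes were called higher and 1230 lower. The block gave 202 and 191 genotype differences and 2482 and 1238 stage differences.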

Other observations

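Among protein-coding genes with at least 10 CPM in untreated WT U2OS cells, the span of the gene went along with the response of ID3-KO cells. Of 1706 genes spanning less than 10 kb, 2.40% were called higher and 5.63% lower, with a median log2 fold change of -0.20. Of 1927 genes spanning 100 kb or more, 5.81% were called higher and 4.10% lower, with a median of -0.0018. After recovery in ID3-KO AID-DIvA cells the medians were 0.09 and -0.12 for the same genes. These are descriptions with no test, since genes are not replicates.

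Among genes with less than 0.1 CPM in untreated WT cells, 220 to 287 reached 10 counts in an untreated ID3-KO library and 959 to 1305 in a treated one, without overlap. Total counts of the 6 libraries overlapped between the groups.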
